A study of Mus musculus with 10 samples.

Results

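The 10 genes described here encode the glucose transporter Slc2a1 and enzymes that carry glucose to pyruvate and lactate: Hk1, Hk2, Pfkl, Aldoa, Tpi1, Pgk1, Eno1, Pkm and Ldha. They were chosen by gene symbol, with earlier results of these data known, from the 53465 genes of the deposited count table. All 10 were among the 16426 genes that passed a filter on low counts. Bulk RNA-seq compared whole pinna prominences, the forming outer ears, of E14.5 C57BL/6J embryos, with 5 wild-type (WT) and 5 mEC1dup/dup replicates (labelled knock-in). In mEC1dup/dup embryos CRISPR/Cas9 had inserted an additional copy of the enhancer mEC1 on each allele in every cell, so that they carried 4 copies where WT embryos carried 2. The comparison asks what a doubled mEC1, an enhancer of the transcription factor gene Hmx1, does to expression in the developing pinna. A whole prominence mixes mesenchyme, cartilage, muscle, epidermis, vessels, nerve and blood, and in such bulk samples fewer cells of a type and less RNA per cell cannot be told apart.

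Glycolysis splits glucose into a pair of pyruvate molecules in the cytosol and yields ATP without oxygen. Lactate dehydrogenase then turns pyruvate into lactate, which restores the NAD+ that the pathway needs. Embryonic tissues, growing cartilage and contracting muscle are known for heavy use of this pathway, and the transcription factor HIF1 raises many of its genes when oxygen is low. Most steps are served by several isozymes: the muscle forms include Pgam2, Eno3 and Pfkm, and lactate dehydrogenase is built from A subunits (Ldha) and B subunits (Ldhb).

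The libraries held 17461544 to 18462073 counts. Hmx1, the check of the labels, had 376 to 526 counts in WT and 976 to 1356 in mEC1dup/dup, so that each mEC1dup/dup library lay above each WT library. Xist, the X-linked transcript of female cells, had 2 to 5 counts in the WT libraries and 12812, 19040, 18165, 2096 and 0 counts in mEC1dup/dup replicates 1 to 5. The 4 tested Y-linked genes summed to 171 to 202 CPM (counts scaled to the size of the library after TMM normalization) in WT, and to 36.5, 1.98, 1.68, 163 and 178 CPM in mEC1dup/dup replicates 1 to 5. Sex and genotype were thus partly confounded, and mEC1dup/dup replicates 1 and 4 held RNA of both kinds. Embryonic globins, which give way to adult globins as gestation proceeds, made up 18.4% to 23.3% of globin counts in WT and 32.5% to 35.6% in mEC1dup/dup, so that this share and genotype cannot be told apart. The study's reporting summary describes the replicates as independent embryos. The cause of the presence of both kinds of RNA in 2 libraries was not tested. WT replicate 4 had the highest sum of neuron and glia markers (583 CPM, against 139 to 329 CPM in the other libraries) and the lowest sum of mesenchyme markers.

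The promoter of Ldha is shown because Ldha names the set, and that of Aldoa because it was the other gene of the set called lower. Each stretch is the 250 bases before the start of the gene's canonical GENCODE transcript, read from GRCm39 on the gene's strand: chr7:46495013-46495262 (plus) for Ldha and chr7:126398427-126398676 (minus) for Aldoa. Capitals mark ACGTG, the core of the HIF binding site, and its reverse complement CACGT.
Ldha: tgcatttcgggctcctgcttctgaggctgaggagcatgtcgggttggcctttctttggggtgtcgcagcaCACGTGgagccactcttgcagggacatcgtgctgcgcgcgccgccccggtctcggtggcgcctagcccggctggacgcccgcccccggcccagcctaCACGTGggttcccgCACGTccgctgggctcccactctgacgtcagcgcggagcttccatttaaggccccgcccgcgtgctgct
Aldoa: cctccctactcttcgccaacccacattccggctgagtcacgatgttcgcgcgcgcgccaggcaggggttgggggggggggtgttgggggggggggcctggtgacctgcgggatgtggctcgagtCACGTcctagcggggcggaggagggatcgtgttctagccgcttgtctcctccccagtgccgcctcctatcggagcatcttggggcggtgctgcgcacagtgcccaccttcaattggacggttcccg
In these windows Ldha held 5 matches to ACGTG on either strand and Aldoa held 1. A CACGTG, the E-box bound by MYC and related factors, counts as a match on each strand, and Ldha held 2 of them. Hk2 and Pgk1 held 2 matches to ACGTG each, so that 4 of the 10 genes had at least 1 match, against 17.0% of the 21495 promoters of protein-coding genes and 20.2% of the 14477 promoters of tested genes. At least 5 matches were found in 0.121% of all protein-coding promoters. CAAGTG, the HMX core motif, was found in the windows of Hk1 and Pfkl, 2 of the 10, against 12.4% of all protein-coding promoters. These are matches of letters in one window per gene, and several of the genes have further start sites.

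Levels between genes were compared per length, as CPM per kilobase of the canonical transcript (RPKM). In WT, Ldha stood highest at 442 ± 16.2 RPKM (SD, n = 5), followed by Pkm (397 ± 24.2), Tpi1 (366 ± 22.5), Eno1 (317 ± 17.2), Aldoa (264 ± 15.6) and Pgk1 (202 ± 4.80). The ranges over the WT replicates overlapped between Ldha and Pkm and between Pkm and Tpi1, and the steps from Tpi1 down to Pgk1 did not overlap. This order may depend on reads that match several genes, whose handling is not given. Of the stretches of 100 bases in the canonical transcript, other genes share 85.3% for Aldoa, 67.0% for Pgk1 and 51.9% for Eno1. For Pkm it is 31.2%, for Ldha 26.2% and for Tpi1 5.90%. Lower levels were measured for the genes of uptake and of the first committed steps: Pfkl had 54.3 ± 3.98 RPKM (SD, n = 5), Slc2a1 31.8 ± 3.85, Hk1 28.4 ± 1.01 and Hk2 5.06 ± 0.49, with overlapping WT ranges for Slc2a1 and Hk1. In mEC1dup/dup, Pkm stood at 403 ± 12.6 RPKM (SD, n = 5) and Ldha at 381 ± 27.1, in the reverse order, and their ranges overlapped there too.

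Of the 10 genes, Aldoa and Ldha were lower in mEC1dup/dup, no gene was higher, and the differences were small: Aldoa fell by 16.8% and Ldha by 13.7%. A gene was called where its average log2 CPM was no less than 1 and its p from edgeR's quasi-likelihood test, adjusted over all tested genes, was no more than 0.05. All adjusted p-values of single genes below are from this test, and log2FC is the log2 fold change of mEC1dup/dup over WT with its standard error (SE). The rule called 1.81% of all tested genes lower and 0.834% higher. A log2FC below 0 was found for 8 of the 10 genes, against 51.2% of all tested genes, and their median was -0.13, against -0.0041 over all tested genes. An unadjusted p under 0.05 was reached by 7 of the 10, each with a lower mean in mEC1dup/dup, against 16.2% of all tested genes. These shares describe a set chosen with earlier results of these data known. DESeq2, which called 510 genes of the whole table lower against 297 in edgeR, called 4 of the 10 lower. limma-voom called 276 genes lower and 2 of the 10, and both called 0 higher, with 0 higher at an unadjusted p under 0.05 in any of the 3 tools.

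**Figure D1:**
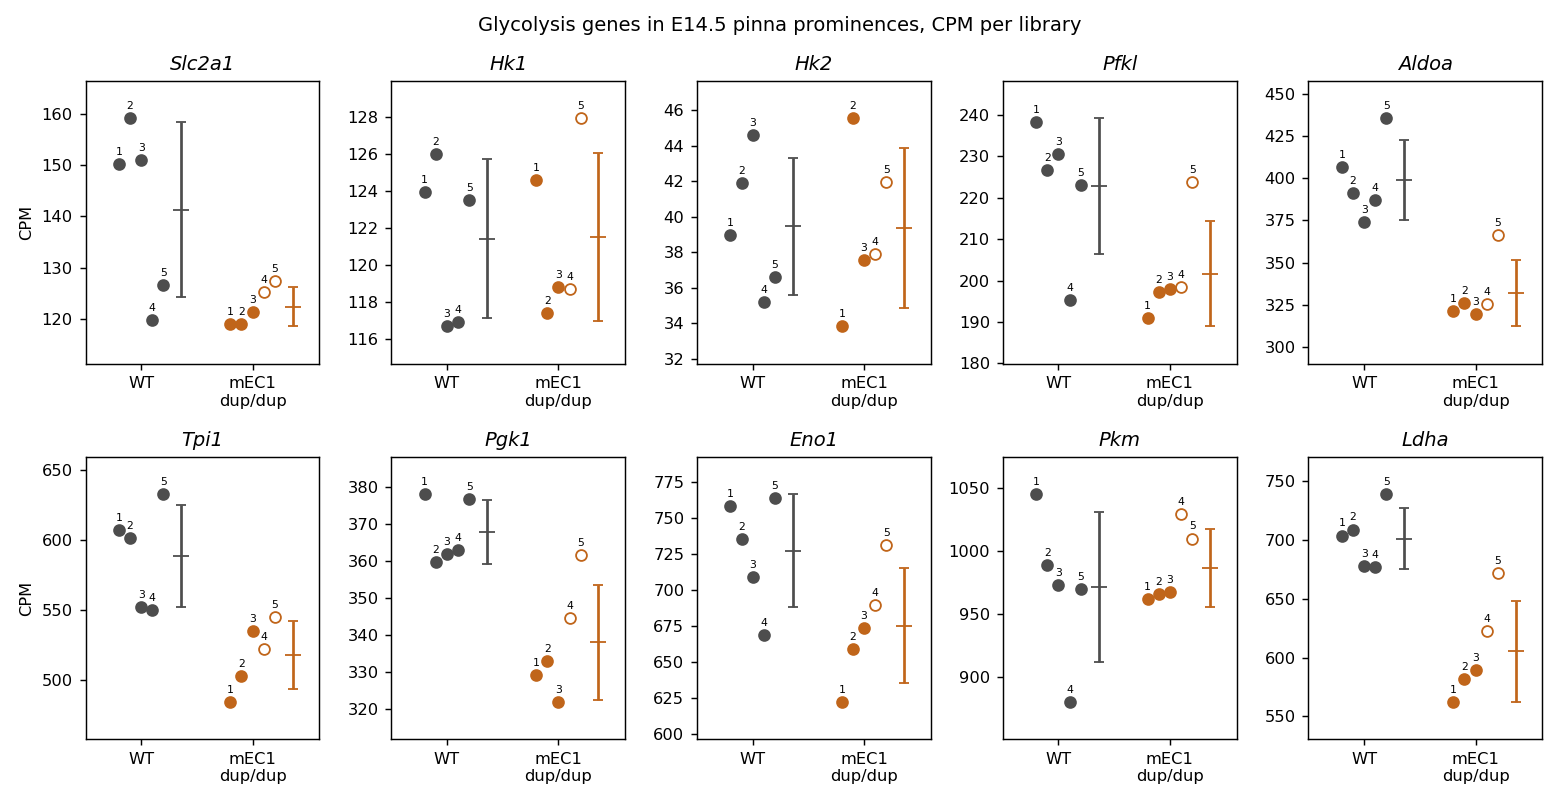
CPM of each of the 10 genes in every library, on an axis of its own that does not start at 0, with replicate numbers beside the points and mean ± SD at the side; open circles are mEC1dup/dup replicates 4 and 5, which had fewer than 10000 Xist counts. The groups do not overlap for Aldoa, Tpi1 and Ldha, and mEC1dup/dup replicate 5 is the highest of its group in 8 of the 10 panels.

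Slc2a1, the glucose transporter GLUT1, had 150, 159, 151, 120 and 127 CPM in WT replicates 1 to 5, and 119, 119, 121, 125 and 127 CPM in mEC1dup/dup replicates 1 to 5. WT replicates 1 to 3 lay above all mEC1dup/dup libraries, and WT replicates 4 and 5 lay among them. The log2FC was -0.21 (SE 0.07, adjusted p = 0.148).

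The hexokinase genes Hk1 and Hk2, whose products trap glucose in the cell as glucose 6-phosphate, did not pass the test (adjusted p = 0.995 and 0.991). Hk1 had 117 to 126 CPM in WT and 117 to 128 CPM in mEC1dup/dup, and its 95% interval of the difference ran from -5.41% to 5.84%. Hk2 had 35.2 to 44.6 CPM in WT and 33.8 to 45.5 CPM in mEC1dup/dup, with a wider interval of -12.1% to 13.3%. In both, the groups covered nearly the same range.

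Pfkl, the liver-type subunit of phosphofructokinase, had 238, 227, 231, 195 and 223 CPM in WT replicates 1 to 5 and 191, 197, 198, 198 and 224 CPM in mEC1dup/dup replicates 1 to 5. WT replicate 4 lay among the low mEC1dup/dup values and mEC1dup/dup replicate 5 among the WT values, and the log2FC was -0.14 (SE 0.06, adjusted p = 0.217). Exons of the antisense gene Cfap410 overlap 39.8% of the exonic bases of Pfkl, and neither library kit named in the sources marks strand.

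Aldoa (ENSMUSG00000030695, minus strand of chromosome 7 from 126393822 to 126399923 in GRCm39), the aldolase that cuts fructose 1,6-bisphosphate, had 407, 391, 374, 387 and 436 CPM in WT replicates 1 to 5. In mEC1dup/dup it had 321, 326, 320, 326 and 366 CPM. Replicates 1 to 4 of mEC1dup/dup lay close together, replicate 5 stood above them, and the groups did not overlap. The log2FC was -0.27 (SE 0.05, adjusted p = 0.0139), and leaving out mEC1dup/dup replicate 3 ended the call (adjusted p = 0.0572). The readthrough gene Gm57854 covers 43.1% of the exonic bases of Aldoa on the same strand and shares 85.3% of the stretches of 100 bases in its canonical transcript, and reads there may have been left uncounted, which bears on the level of Aldoa given above.

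Tpi1, the triosephosphate isomerase that interconverts both products of aldolase, was also a gene whose groups did not overlap. It had 607, 601, 552, 550 and 633 CPM in WT replicates 1 to 5 and 484, 503, 535, 522 and 545 CPM in mEC1dup/dup replicates 1 to 5. Its log2FC of -0.18 (SE 0.05, adjusted p = 0.0595) did not pass the threshold, nor did it in limma-voom (adjusted p = 0.0545). DESeq2's Wald test (adjusted p = 0.00939), edgeR's likelihood ratio test (0.0252) and limma-voom with quality weights (0.0161) called it lower. So did edgeR's test with the replicate number as a block (0.0460). Over all tested genes, 2.75% had every mEC1dup/dup library below every WT library, against 3 of these 10, and 2.33% had every one above, against 0 of these 10.

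Pgk1, the X-linked phosphoglycerate kinase, had 378, 360, 362, 363 and 377 CPM in WT replicates 1 to 5. It had 329, 333, 322, 344 and 362 CPM in mEC1dup/dup replicates 1 to 5. Replicates 1 to 4 of mEC1dup/dup lay below every WT library, and replicate 5, with 0 Xist counts, lay within the WT range. Replicate 5 was also the highest of its group in 8 of the 10 genes, and the part of sex in Pgk1 was not tested. The log2FC was -0.12 (SE 0.04, adjusted p = 0.108). The pseudogene Pgk1-rs7 and 2 further genes share 67.0% of the stretches of 100 bases in the Pgk1 transcript, so reads of Pgk1 may have been split or dropped.

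Eno1, the enolase of most tissues, had 668 to 764 CPM in WT (median 736) and 622 to 731 CPM in mEC1dup/dup (median 673), a log2FC of -0.11 (SE 0.05, adjusted p = 0.297). It shares 51.9% of its stretches of 100 bases with other genes, above all its copy Eno1b. Pkm, the pyruvate kinase that makes pyruvate, had 880 to 1045 CPM in WT and 962 to 1029 CPM in mEC1dup/dup, and the 95% interval of the difference ran from -4.87% to 8.49%. Its mEC1dup/dup libraries all lay within the WT range, and it did not pass the test (adjusted p = 0.852). Other genes overlap 40.6% of the exonic bases of Pkm and share 31.2% of its stretches of 100 bases.

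Ldha (ENSMUSG00000063229, plus strand of chromosome 7 from 46490899 to 46505061), which encodes the A subunit of lactate dehydrogenase, had 704, 709, 678, 677 and 739 CPM in WT replicates 1 to 5. It had 562, 581, 589, 623 and 672 CPM in mEC1dup/dup replicates 1 to 5. Every mEC1dup/dup library lay below every WT library, although mEC1dup/dup replicate 5 came within 5.04 CPM of the lowest WT library. The log2FC was -0.21 (SE 0.05, adjusted p = 0.0360), with a 95% interval of -0.32 to -0.11. Leaving out each library in turn kept it between -0.25 and -0.19, but the call was lost in 8 of the 10 fits and held only without WT replicate 4 or without mEC1dup/dup replicate 5. Lower calls over the whole table ran from 120 to 476 in these smaller fits, against 297 with all libraries. They rose above 297 only without WT replicate 4 (476) or mEC1dup/dup replicate 1 (342). Of the exonic bases of Ldha 13.8% are covered by antisense genes, and 26.2% of its stretches of 100 bases are shared with other genes.

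The same libraries stood high or low in most of the 10 genes. In mEC1dup/dup, replicate 5 had the highest CPM of its group in 8 of the 10 genes and replicate 1 the lowest in 6. In WT, replicate 4 had the lowest CPM in 7 of the 10 genes. With WT replicate 4 left out, 5 of the 10 were called lower: Slc2a1, Pfkl, Aldoa, Tpi1 and Ldha. Calls rose over the whole table too, to 476 lower of 16593 genes, against 297 of 16426 with all libraries. With any other single library left out, 0 to 2 were called, and 0 without mEC1dup/dup replicate 3, a fit that called 120 genes lower in the whole table. The order within mEC1dup/dup followed the Xist counts in part, since the replicates with 2096 and 0 counts had the highest values of Slc2a1, Pfkl, Pgk1, Eno1, Pkm and Ldha. When Xist (log2 CPM) was added as a covariate, the estimate was -0.08 for Ldha (adjusted p = 0.727), -0.15 for Aldoa (adjusted p = 0.526) and -0.12 for Tpi1 (adjusted p = 0.651) in edgeR's test, and 0 of the 10 genes were called, with 1 of them at an unadjusted p under 0.05. That fit called 1 gene lower and 2 higher in the whole table. With mEC1dup/dup replicates 4 and 5 alone against all WT libraries, a comparison chosen after seeing the data, it was -0.11 for Ldha and -0.20 for Aldoa, and 0 of the 10 were called, with 1 at an unadjusted p under 0.05. In that smaller comparison 1 gene was called in the whole table. When the share of embryonic globins was the covariate, Ldha stood at -0.03 (SE 0.21, against 0.05 without a covariate) and no gene of the table was called. Hmx1, the check of the labels, was not called there either, at 0.34 (SE 0.38, adjusted p = 0.921) against 1.31 without a covariate. In that fit 2 of the 10 genes had an unadjusted p under 0.05, both above 0: Pkm at 0.45 and Pfkl at 0.43 (adjusted p = 0.898 for each). The median of the 10 genes, -0.13 without a covariate, was -0.03 with Xist, -0.07 with mEC1dup/dup replicates 4 and 5 alone and 0.15 with the globin share, where 3 of the 10 were below 0.

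**Figure D2:**
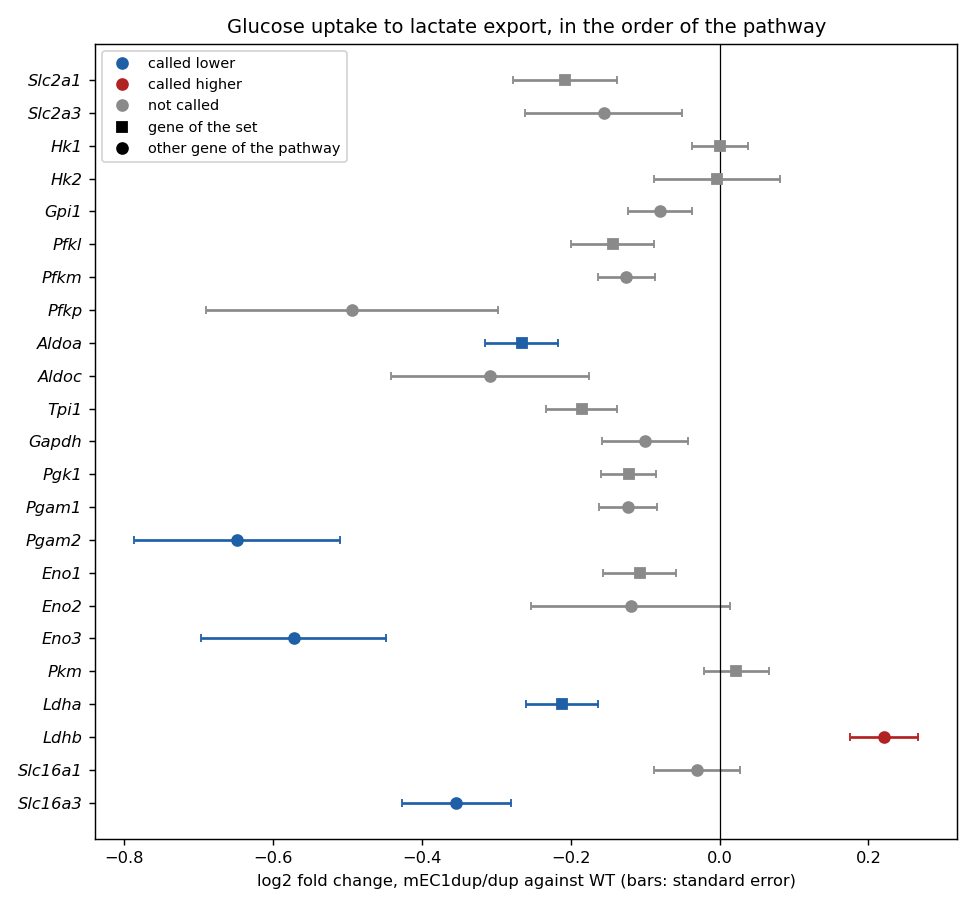
Log2 fold change of mEC1dup/dup against WT with its standard error for the genes from glucose uptake to lactate export, in the order of the pathway; squares are the 10 genes of the set, circles the other genes, and colour marks those called lower (blue) or higher (red). Most points lie left of 0, the muscle forms Pgam2 and Eno3 lie farthest left among the called genes (-0.65 and -0.57), and Ldhb is the called gene to the right of 0 (0.22).

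The other genes of the pathway came from a list of 28 further isozymes and transporters, of which 23 were tested. The test called 3 lower and 1 higher, and log2FC was below 0 in 17 of the 23, with a median of -0.10. The lower genes were Pgam2, the muscle phosphoglycerate mutase, Eno3, the muscle enolase, and Slc16a3, the transporter MCT4 that exports lactate. Pgam2 had 29.1, 22.5, 23.6, 27.7 and 34.9 CPM in WT replicates 1 to 5 and 21.3, 17.0, 16.5, 13.2 and 20.0 CPM in mEC1dup/dup replicates 1 to 5, without overlap. Its log2FC was -0.65 (SE 0.14, adjusted p = 0.0260). Eno3 had 46.7 to 74.4 CPM in WT and 31.4 to 48.0 CPM in mEC1dup/dup, a log2FC of -0.57 (SE 0.12, adjusted p = 0.0292). Slc16a3 had 53.1 to 65.4 CPM in WT and 42.5 to 53.6 CPM in mEC1dup/dup, a log2FC of -0.35 (SE 0.07, adjusted p = 0.0235). In both, mEC1dup/dup replicate 5 was the one library that reached into the WT range. With WT and mEC1dup/dup libraries left out in turn, the calls of Pgam2 and Eno3 were each lost in 5 of 10 fits and that of Slc16a3 in 6. None of the 3 was called with the Xist covariate (adjusted p = 0.488 for Pgam2, 0.605 for Eno3 and 0.625 for Slc16a3), with the embryonic globin share (0.898, 0.898 and 0.969) or with mEC1dup/dup replicates 4 and 5 alone (0.219, 0.327 and 0.378). Slc16a3 stood at -0.18 with Xist and -0.11 with the globin share, Pgam2 at -0.54 and -0.92, and Eno3 at -0.36 and -0.97.

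Pgam1, Gpi1 and Gapdh, which most tissues express, had smaller differences than the called genes. Pgam1 had 331 to 351 CPM in WT and 297 to 338 CPM in mEC1dup/dup, a log2FC of -0.12 (SE 0.04, adjusted p = 0.120). Gpi1, which converts glucose 6-phosphate to fructose 6-phosphate, had a log2FC of -0.08 (adjusted p = 0.398). Gapdh had a log2FC of -0.10 (adjusted p = 0.435). Other isozymes had larger estimates without a call: Pfkp -0.49 (SE 0.20, adjusted p = 0.226) and Aldoc -0.31 (SE 0.13, adjusted p = 0.269). With the replicate number as a block, Pfkp was called lower (adjusted p = 0.0340). The muscle form Pfkm stood at -0.13 (SE 0.04, adjusted p = 0.111).

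Ldhb (ENSMUSG00000030246), the B subunit of lactate dehydrogenase, was the one gene of these lists that was higher in mEC1dup/dup. It had 93.4, 98.9, 95.8, 107 and 95.9 CPM in WT replicates 1 to 5 and 107, 114, 116, 122 and 113 CPM in mEC1dup/dup replicates 1 to 5. The groups met without overlap, at 107.02 CPM in WT replicate 4 and 107.03 CPM in mEC1dup/dup replicate 1. The log2FC was 0.22 (SE 0.05, adjusted p = 0.0227), lay between 0.20 and 0.25 with each library left out in turn, and lost its call in 6 of those 10 fits. Beside the Xist covariate it was 0.23 (adjusted p = 0.371), against -0.08 for Ldha in the same fit. Beside the embryonic globin share it was 0.00080 (SE 0.20, adjusted p = 0.999), against -0.03 (SE 0.21) for Ldha.

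The ratio of Ldha to Ldhb does not depend on how libraries are scaled. Per length, Ldha made up 87.3% ± 0.87 (SD, n = 5) of the sum of both subunits in WT, against 83.6% ± 0.88 (SD, n = 5) in mEC1dup/dup. The log2 ratio was 2.86, 2.79, 2.77, 2.61 and 2.89 in WT replicates 1 to 5 and 2.34, 2.30, 2.29, 2.29 and 2.51 in mEC1dup/dup replicates 1 to 5. All mEC1dup/dup libraries lay below all WT libraries, and the groups differed by -0.44 (p = 0.00794 in an exact permutation test, two-sided, the smallest it can give). Benjamini-Hochberg adjustment over the 7 isozyme ratios gave 0.0556, a value that a single ratio at the smallest p cannot go below. With each library left out in turn, the adjusted value of this permutation test ran from 0.0278 to 0.0556. It was under 0.05 in 1 of the 10 fits. In that fit the ratio of Eno1 to Eno3 also reached 0.0278, and the adjustment of a ratio depends on the others.

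**Figure D3:**
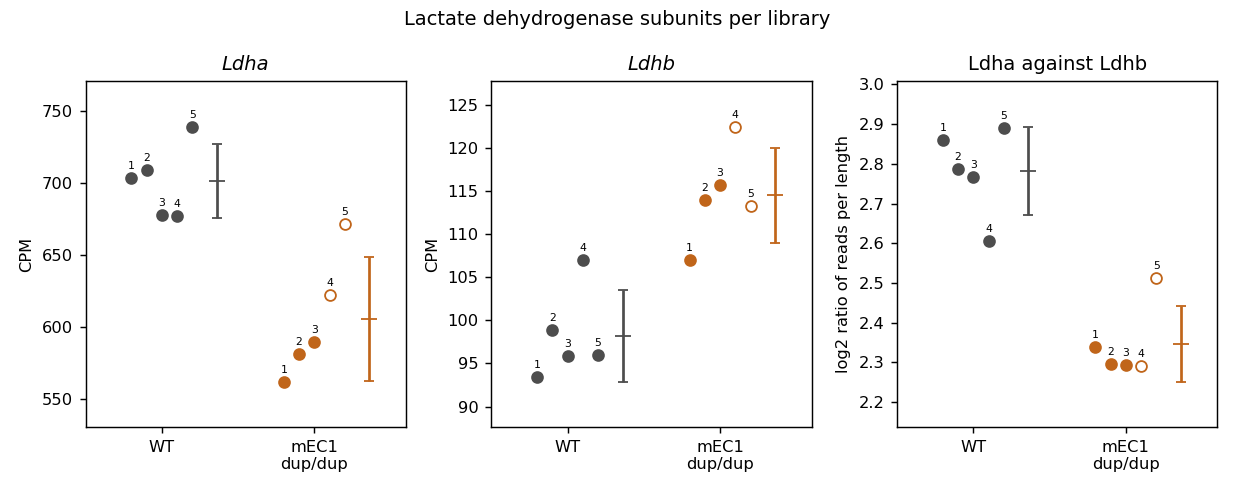
CPM of Ldha and Ldhb and the log2 ratio of their reads per length in every library, with replicate numbers, mean ± SD at the side, and open circles for mEC1dup/dup replicates 4 and 5; the axes do not start at 0. Ldha lies lower and Ldhb higher in mEC1dup/dup, and the ratio is 2.61 to 2.89 in WT and 2.29 to 2.51 in mEC1dup/dup.

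The ratio of Eno1 to the muscle form Eno3 averaged 3.25 on the log2 scale in WT (SD 0.25, n = 5) against 3.72 in mEC1dup/dup (SD 0.23, n = 5), a difference of 0.46 (exact permutation p = 0.0238, adjusted 0.0833). Its adjusted permutation p ran from 0.0278 to 0.167 with each library left out in turn. The other 5 ratios gave exact permutation p-values of 0.270 or more. They compared Slc2a1 with Slc2a3, Hk2 with Hk1, Aldoa with Aldoc, and Pfkl with Pfkp and with Pfkm. In WT, Aldoa made up 98.6% ± 0.19 (SD, n = 5) of its sum with Aldoc, against 98.7% ± 0.20 in mEC1dup/dup. Hk1 outweighed Hk2, which made up 15.1% of their sum in both groups (SD 1.36 in WT and 1.63 in mEC1dup/dup, n = 5 each).

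Neighbouring pathways were read from lists of the same kind, with the same edgeR test. Of 16 genes of glycogen metabolism, 2 were lower and 0 higher (3 and 0 in DESeq2), with 5 at an unadjusted p under 0.05 and a median log2FC of -0.05. Pygm, the muscle glycogen phosphorylase, had 17.5 to 32.3 CPM in WT and 9.71 to 15.4 CPM in mEC1dup/dup, a log2FC of -0.80 (SE 0.16, adjusted p = 0.0228). Ppp1r3c, which targets a phosphatase to glycogen, had 24.7 to 29.3 CPM in WT and 18.7 to 21.1 CPM in mEC1dup/dup, a log2FC of -0.40 (SE 0.07, adjusted p = 0.00979). The groups did not overlap for either gene, and Ppp1r3c kept its call in all 10 fits that left out a library. Pygm lost its call in 3 of them, without WT replicate 2 and without mEC1dup/dup replicate 2 or 4, with adjusted p up to 0.0578. Neither gene was called with the Xist covariate (adjusted p = 0.172 for Ppp1r3c and 0.371 for Pygm) or with the embryonic globin share (0.898 for each). The same held with mEC1dup/dup replicates 4 and 5 alone (0.159 and 0.183). The estimates did not shrink in these fits: Ppp1r3c stood at -0.51, -0.51 and -0.48, and Pygm at -0.87, -2.26 and -0.99. Their standard errors were larger than in the main test, at 0.10, 0.31 and 0.10 for Ppp1r3c and 0.28, 0.59 and 0.24 for Pygm.

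None of the 20 genes of pyruvate dehydrogenase and the tricarboxylic acid cycle was called by edgeR's quasi-likelihood test, DESeq2 or limma-voom. Of these, 3 had an unadjusted p under 0.05, and the median log2FC was 0.01. None of the 7 genes of the pentose phosphate pathway was called by these tools either, 3 had an unadjusted p under 0.05 in the edgeR test, each with a higher mean in mEC1dup/dup, and the median was 0.07. Among 11 kinases and phosphatases that set glycolytic flux, edgeR and limma-voom called none and DESeq2 called 1 lower, with 3 at an unadjusted p under 0.05 and a median of 0.01.

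Among 13 regulators of glycolytic genes and of oxygen sensing, edgeR's quasi-likelihood test and limma-voom called none and DESeq2 called 1 higher, and 3 had an unadjusted p under 0.05. Hif1a, the oxygen-regulated subunit of HIF1, averaged 117 CPM in WT (SD 4.25, n = 5) against 113 CPM in mEC1dup/dup (SD 11.5, n = 5), a log2FC of -0.04 (adjusted p = 0.801). Vhl, which marks HIF subunits for degradation, had 54.4 to 65.4 CPM in WT and 66.5 to 69.3 CPM in mEC1dup/dup, a log2FC of 0.18 (adjusted p = 0.0706). Egln1, the prolyl hydroxylase that marks HIF subunits for Vhl, had 99.0 to 107 CPM in WT and 95.2 to 98.6 CPM in mEC1dup/dup, a log2FC of -0.11 (adjusted p = 0.0967). Neither passed the threshold, although the groups did not overlap. Hif1a, Vhl and Egln1 were named after their values were seen. HIF1 is controlled mainly through the stability of its protein, which RNA does not measure.

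Markers of some cell types also differed between the groups. The 10 muscle markers summed to 1759 to 2689 CPM in WT and to 1034 to 1670 CPM in mEC1dup/dup, without overlap, and 5 of the 10 were called lower. Ckm, the muscle creatine kinase, had a log2FC of -2.25. The muscle regulators Myod1 and Myog had log2FC values of 0.09 and 0.12 and were not called. The 9 epithelial markers summed to 964 to 1825 CPM in WT and to 717 to 943 CPM in mEC1dup/dup, also without overlap, and 5 of the 9 were called lower. The 6 chondrocyte markers summed to 4818 to 7927 CPM in WT and to 2129 to 6289 CPM in mEC1dup/dup, with mEC1dup/dup replicate 1 lowest. edgeR's quasi-likelihood test and DESeq2 called none of them, with 3 and 1 at an unadjusted p under 0.05, and edgeR's likelihood ratio test called 1 lower. Of the 9 erythroid markers, the embryonic globins Hbb-y and Hba-x were called higher. The sums of the erythroid, endothelial, macrophage, and neuron and glia markers overlapped between the groups. No marker of these cell types was at 0 in any library, and the lowest count was 11, for the erythroid gene Epb42. The 6 mesenchyme markers, read to check the labelled tissue, summed to 5760 to 9490 CPM in WT and to 6374 to 7111 CPM in mEC1dup/dup. Of these, 1 was called lower (2 in DESeq2) and 3 had an unadjusted p under 0.05. The called gene was Lum, a proteoglycan of connective tissue, whose groups did not overlap (log2FC -0.30, adjusted p = 0.00740). Within mEC1dup/dup, replicate 1 had the lowest sum of the 10 glycolysis genes (3749 CPM). The same library had the highest muscle (1670 CPM) and epithelial (943 CPM) sums of its group. The part of muscle, epithelium, cartilage and mesenchyme in the lower values of Aldoa and Ldha was not tested.

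**Figure D4:**
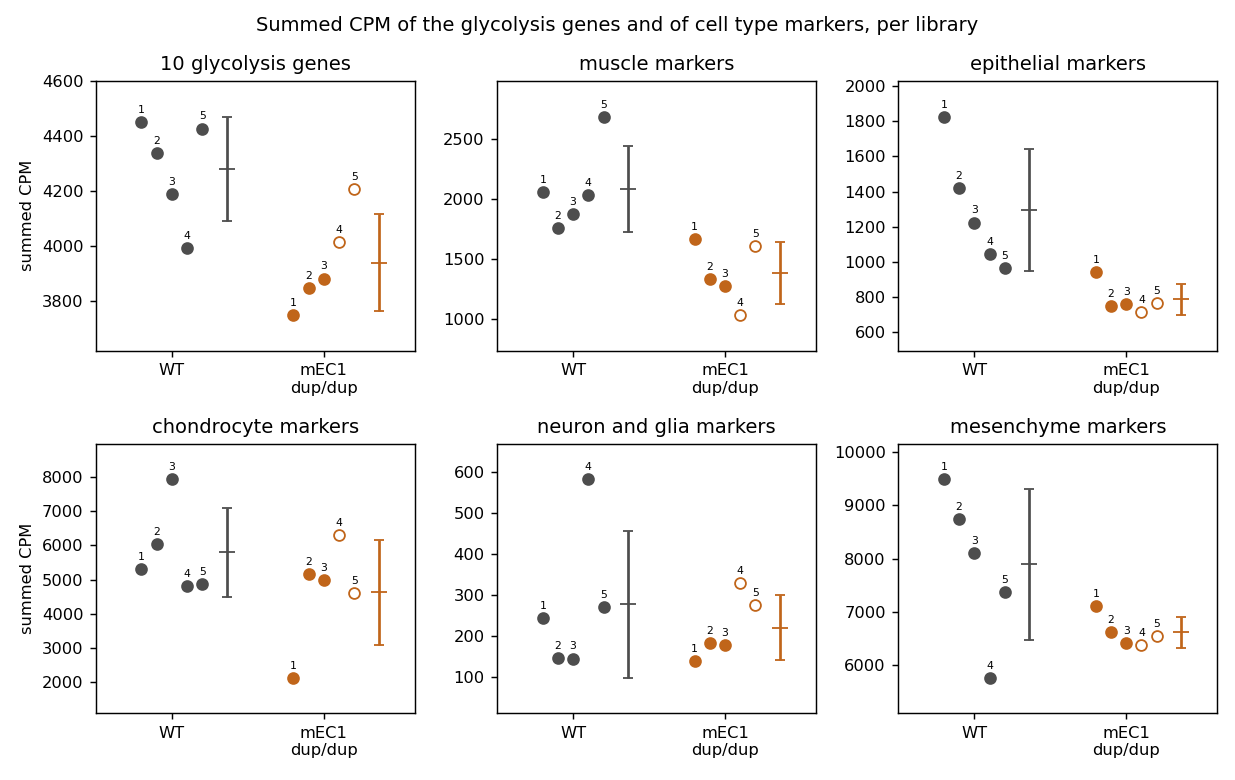
Summed CPM of the 10 glycolysis genes and of 5 lists of cell type markers in every library, with replicate numbers, mean ± SD at the side, and open circles for mEC1dup/dup replicates 4 and 5; the axes do not start at 0. The sums of muscle and epithelial markers do not overlap between the groups, whereas the glycolysis sums do, at 3993 to 4450 CPM in WT and 3749 to 4207 CPM in mEC1dup/dup.

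The genes whose pattern over the 10 libraries was most like that of Ldha were found by Pearson's correlation of log2 CPM over all tested genes. They were Itih5 (r = 0.978), Pgam1 (0.971), Zbtb7b (0.968), Aldoa (0.955) and Mal (0.950). These are the 5 highest values, and the points share the library, its depth and the genotype. Itih5, which encodes an inter-alpha-trypsin inhibitor heavy chain, had 45.9 to 57.3 CPM in WT and 34.5 to 45.6 CPM in mEC1dup/dup. Zbtb7b, a zinc finger transcription factor, had 19.3 to 21.4 CPM in WT and 13.3 to 17.9 CPM in mEC1dup/dup. Mal, a membrane proteolipid of myelin and epithelia, had 5.10 to 6.99 CPM in WT and 2.57 to 4.55 CPM in mEC1dup/dup. All 3 were called lower, as was Aldoa, whereas Pgam1 was not, but the genes were chosen for likeness to Ldha, whose groups do not overlap. With each library left out in turn, Itih5 and Mal each lost the call in 6 of 10 fits and Zbtb7b in 4, and none of the 3 was called beside the Xist covariate.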

How the data were processed

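Poly(A) RNA of E14.5 pinna prominences was sequenced in 10 libraries, 5 WT and 5 mEC1dup/dup. The labels and the methods of the study name different library kits. The deposited values are raw counts per gene, which the authors obtained with featureCounts after trimming (fastp) and alignment to GRCm39 (STAR). The annotation release, strand setting and handling of multiply matching reads are not given in the sources used here. Symbols, positions and canonical transcripts came from GENCODE vM39 (GRCm39), which matched 49355 of 53465 identifiers; the others held 0.111% of counts. Genes were filtered with filterByExpr, scaled by TMM and tested for genotype, without covariates, by glmQLFit and glmQLFTest of edgeR version 4.0.16 (R version 4.3.3). Log2 CPM used a prior count of 2. The standard error is the size of the log2 fold change divided by the square root of F. Isozyme ratios of counts per length were compared by exact permutation. The steps were tested on simulated counts.

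The genes named were the 10 of the set, called genes of the pathway lists, isozyme partners, Hmx1, Xist and the 5 genes most like Ldha. Gpi1, Gapdh, Hif1a, Vhl, Egln1, Epb42, Hbb-y, Hba-x, Lum, Ckm, Myod1 and Myog were named after their values were seen. The set and the lists were chosen with earlier results of these data known. The replicates were described as independent embryos, siblings from separate litters; which libraries share a litter is not stated. Alternatives were other scalings, filters, tests (DESeq2 version 1.42.0, limma version 3.58.1) and thresholds, covariates, the replicate block and leaving out each library. Depth was 17461544 to 18462073 counts, and reads carry no molecular identifiers. Figures were drawn with matplotlib version 3.10.9.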

Additional observations from a re-analysis of the deposited data

Results flagged for a closer look

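Single libraries stood apart from the other 4 of their group in 4 of the 50 groups examined (25 named genes in each genotype), by a test of the gap to the nearest sample that flags about 1 group in 20 by chance. In mEC1dup/dup, replicate 5 had 366.4 CPM of Aldoa, against 325.7 CPM in the next library, and 223.8 CPM of Pfkl, against 198.4 CPM. This library had 0 Xist counts, and the part of Xist or sex in these values was not tested. Replicate 1 of mEC1dup/dup had 99.95 CPM of Slc2a3, the glucose transporter GLUT3, against 81.24 CPM in the next. Replicate 2 of mEC1dup/dup had 109.9 CPM of Pfkm, the muscle phosphofructokinase subunit, against 103.4 CPM.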

How the results depend on the processing

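With other scalings (DESeq2 size factors, upper quartile, total counts), other filters or limma-voom, 2 of the 10 genes were called lower, as in the report. The count was 3 at an adjusted p of at most 0.1 and in edgeR's likelihood ratio test, 4 in DESeq2's Wald test, 6 in limma-voom with quality weights, 0 at an adjusted p of at most 0.01, and 0 with the Xist covariate, the embryonic globin share as a covariate, or mEC1dup/dup replicates 4 and 5 alone. Lower calls over the whole table moved too. They were 297 in the main test, 488 at 0.1 and 62 at 0.01. The likelihood ratio test gave 447, DESeq2's Wald test 510, quality weights 584 and the replicate block 487. With a library left out they ran from 120 to 476. The Xist covariate gave 1, and the globin share or replicates 4 and 5 alone gave 0. Among the other pathway lists, 5 genes were lower and 1 higher; the count lower was 1 at 0.01, 7 in DESeq2's Wald test, 10 with quality weights and 0 under both covariates and with replicates 4 and 5 alone, and the count higher was 2 at 0.1, in DESeq2's Wald test, with quality weights and in the likelihood ratio test, and 0 at 0.01, under both covariates and with replicates 4 and 5 alone. Ldha stood at -0.076 (Xist), -0.028 (globin share) and -0.11 (replicates 4 and 5 alone) without a call. The direction of log2FC turned with the globin share for Slc2a1 (0.50), Hk2 (0.44), Pfkl (0.43), Pgk1 (0.092), Eno1 (0.18), Slc2a3 (0.59), Aldoc (0.25), Pgam1 (0.081) and Mal (0.65), with the Xist covariate for Hk2 (0.056) and Aldoc (0.052), and with replicates 4 and 5 alone for Hk2 (0.019). None was called there. The globin share cannot be told apart from genotype, and standard errors were larger with it than in the main test. They were 0.25 against 0.07 for Slc2a1, 0.37 against 0.08 for Hk2 and 0.63 against 0.17 for Mal. The values near 0 also turned: Hk1 with upper quartile scaling (-0.0024), a minimum of 10 counts (-0.0022) and quality weights (-0.020), Hk2 with total counts (0.0089) and no filter (0.0030), and Pkm with quality weights (-0.0041). With each library left out in turn, 0 to 5 of the 10 genes were lower and 1 to 8 genes of the other lists lower and 0 to 2 higher, Ldha ranged from -0.25 to -0.19, Hk1 from -0.019 to 0.020, Hk2 from -0.060 to 0.047, Pkm from -0.013 to 0.051, and the log2 ratios Ldha/Ldhb from -0.48 to -0.41, Eno1/Eno3 from 0.38 to 0.54, Aldoa/Aldoc from -0.011 to 0.13, Hk2/Hk1 from -0.072 to 0.056, Pfkl/Pfkm from -0.063 to 0.025 and Slc2a1/Slc2a3 from -0.10 to 0.026. The causes of these changes were not tested. With the replicate block, 3 of the 10 genes (Aldoa, Tpi1 and Ldha) and 7 genes of the other lists were lower, and Ldha stood at -0.21 (edgeR adjusted p = 0.0135). The labels do not say that a number marks a shared litter, and the numbers were not taken to pair the libraries: same-numbered libraries correlated at -0.0558 to 0.345 (mean 0.162, against -0.0403 for other pairs), and 2 of 5 WT libraries correlated best with their own number. Under the block no isozyme ratio could go below p = 0.0625 in the exact sign-flip permutation test.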
